A study of Mus musculus with 32 samples.

Results

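Primary mouse melanomas differ in how strongly they express the genes of dividing cells. The tumours compared here were 10 fast and 10 slow ones among 32, ranked by the RNA of 4 proliferation genes. For each tumour a score was taken as the mean log2(TPM + 1) of Mki67, Top2a, Ccnb1 and Cdk1, where TPM corrects for transcript length and library size. The 10 tumours with the highest score are called high, the 10 with the lowest score low, and the other 12 middle. These classes were chosen by measured RNA, and no label gives a growth rate, so "high" and "low" refer to the score alone.

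All mice carried Tyr::NRAS Q61K, an activated NRAS oncogene driven in the melanocyte lineage by the tyrosinase promoter, on a C57BL/6J background, lacked 1 copy of the tumour suppressor Cdkn2a, and had both copies of Cdh1, the E-cadherin gene, flanked by loxP sites. Ecad tumours kept Cdh1. ΔEcad tumours arose with a Tyr-driven Cre recombinase that removes Cdh1 in melanocytes according to the methods, although the genotype label of these tumours repeats Tyr::NRAS where Tyr::CreA would stand. There were 8 tumours in each of the 4 groups given by genotype and sex, and the ages of the mice at collection were not analysed here. The labels name no batch, and nothing states that the tumours came from 32 separate mice, so the p-values measure the spread between these samples.

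A cell that enters division first makes cyclin D and cyclin E, whose kinases inactivate the retinoblastoma proteins and release E2F factors that switch on the genes of DNA replication. Later, the MuvB complex with B-MYB (Mybl2) and FOXM1 switches on the genes of mitosis, many of which carry a CHR element beside CCAAT boxes in their promoters. Inhibitors of the cyclin-dependent kinases, among them p21 (Cdkn1a), p57 (Cdkn1c) and the Cdkn2a products, hold this sequence back. In melanoma the oncogene drives the cycle through the MAP kinase pathway, and a bulk tumour also holds stroma, vessels, immune cells and neighbouring skin.

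Of the high tumours, 7 came from females and 3 from males, and 6 were ΔEcad and 4 Ecad. Of the low tumours, 4 came from females and 6 from males, with 5 of each genotype. The score ran from 4.91 to 7.09 in the high tumours (median 5.77), from 3.86 to 4.77 in the middle tumours (median 4.22) and from 1.43 to 3.74 in the low tumours (median 3.25). The last tumour inside the high class, ΔEcad female 6 at 4.91, stood beside ΔEcad male 4 at 4.77 just outside it. The last inside the low class, ΔEcad male 6 at 3.74, stood beside ΔEcad male 3 at 3.86. Both edges were therefore narrow against the mean difference of 2.70 between the classes. A score from log2 CPM (counts scaled to the library total) picked the same 10 high tumours and 9 of the 10 low ones, and a score over 44 DNA replication genes picked 9 and 8 of them.

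Total counts ranged from 24036333 to 63923086 per tumour, and the classes overlapped in depth. Cdh1, the targeted gene, was at a median of 144.6 TPM in Ecad males against 3.29 TPM in ΔEcad males, and at 30.6 TPM in Ecad females against 46.7 TPM in ΔEcad females, so its median was lower with the deletion in males only, and the ranges overlapped in both sexes. Melanocytic markers were high in all tumours except ΔEcad male 7, where 20 markers summed to 3046 counts against at least 220723 elsewhere. The library labelled ΔEcad male 2 held 0 counts over 4 Y-linked genes, against at least 1459 in the other males, and Xist RNA at 6.41 TPM, where other males reached 0.20 TPM and females ran from 8.55 to 253.2 TPM. Its sex is therefore in doubt, and it is counted as male by its label wherever sexes are given. ΔEcad female 3, the tumour with the highest score, held 0 counts of 6 red blood cell markers, 0 counts for 10 of 14 macrophage markers and 0 for 16 of 18 T and NK cell markers. These 3 libraries were all in the high class, and results are given with and without them.

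The members of the score are 4 genes of the late cycle. Mki67 (ENSMUSG00000031004, chromosome 7, 135689784 to 135716361, GRCm38) encodes the Ki-67 antigen on the surface of mitotic chromosomes. Its level was 13.2, 57.0 and 109.2 TPM at the lowest, median and highest high tumour, and 0.28, 5.57 and 11.5 TPM at those of the low class. Top2a (ENSMUSG00000020914, chromosome 11, 98992943 to 99024189) encodes topoisomerase II alpha, which untangles DNA before chromosomes part. Top2a was at 33.8, 68.7 and 193.8 TPM in the high tumours and at 1.25, 8.81 and 11.99 TPM in the low tumours. Ccnb1 (ENSMUSG00000041431, chromosome 13, 100778650 to 100786570) encodes cyclin B1, the partner of Cdk1 (ENSMUSG00000019942, chromosome 10, 69335146 to 69352938) at the entry into mitosis. Ccnb1 was at 22.8, 36.7 and 125.7 TPM in the high tumours and at 1.75, 5.60 and 18.3 TPM in the low tumours. Cdk1 was at 33.7, 50.4 and 149.6 TPM against 5.68, 14.7 and 32.9 TPM. In TPM none of the 4 genes overlapped between the classes, as the rule all but fixes, and no test is given for them. The fold differences from the count model, on the log2 scale, were 2.86 for Mki67, 2.77 for Top2a, 2.31 for Ccnb1 and 1.49 for Cdk1.

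The 4 genes did not keep 1 order in every tumour. The ratio of Mki67 to Cdk1 in TPM ran from 0.0471 in Ecad male 8 to 2.15 in ΔEcad male 4, both middle tumours. Among the high tumours it was lowest in ΔEcad male 2 at 0.163, where Mki67 stood at 13.2 TPM beside 81.0 TPM of Cdk1. Its median was 0.885 in the high and 0.319 in the low tumours. Mki67 has a long transcript and Cdk1 a short one, and the balance of long against short transcripts also differed between libraries. For each gene, the log2 CPM of a tumour was set against the gene's mean over the 32 tumours. The balance is the median deviation of 1333 genes with transcripts over 6000 bases minus that of 1589 genes under 2000 bases. It had a median of 0.42 in the high and -0.21 in the low tumours. The balance was lowest in ΔEcad male 1 (-1.64) and ΔEcad male 2 (-1.37).

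**Figure D1:**
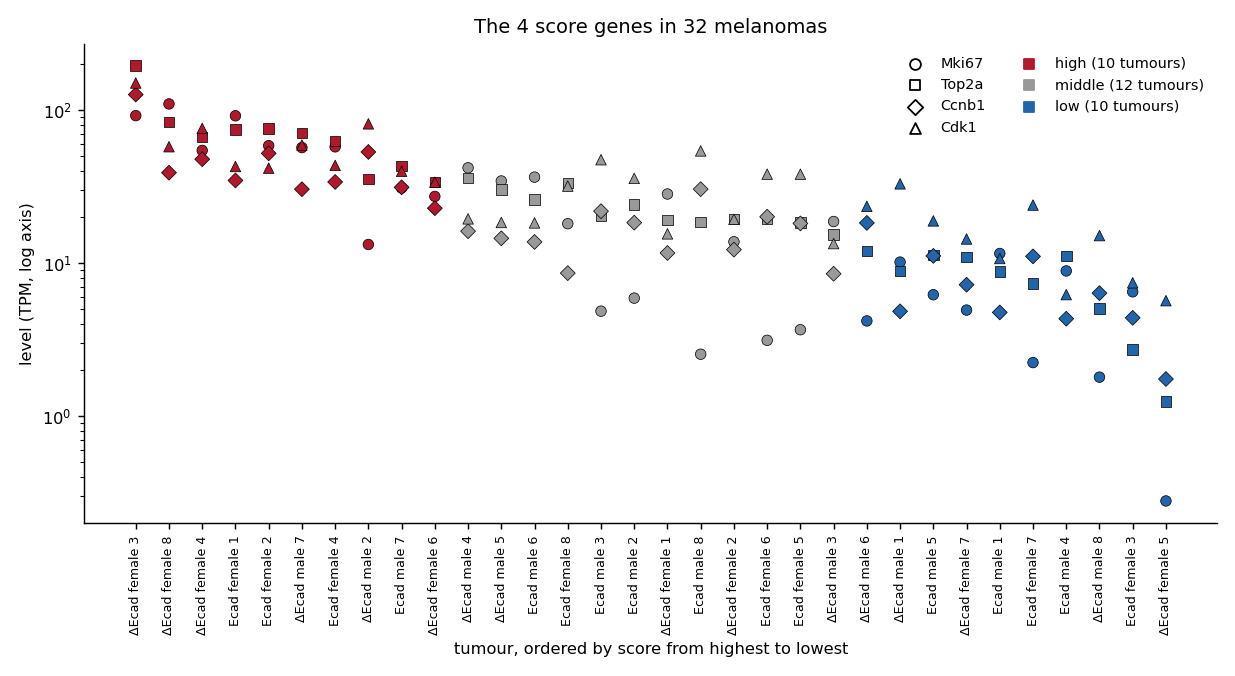
Levels in TPM (log axis) of Mki67, Top2a, Ccnb1 and Cdk1 in the 32 tumours, ordered by score from highest to lowest and coloured by class (10 high, 12 middle, 10 low). Each point is 1 gene in 1 tumour. Mki67 falls far below the other 3 genes in several middle tumours and in ΔEcad male 2, and ΔEcad female 5 is lowest for all 4 genes.

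The promoters of these genes were searched for the elements named above, and the bases upstream of the transcription start are shown to let the motifs be read. The sequences are RefSeq promoters on GRCm38.p6, minus strand, written 5′ to 3′ and ending before both the RefSeq and the outermost GENCODE start. Capitals mark CHR elements (TTTGAA or TTCGAA on either strand), CCAAT boxes (CCAAT or ATTGG) and E2F sites (TTTCCCGC, TTTCGCGC, TTTGGCGC or TTTGCCGC on either strand).
Mki67, chr7:135716380-135716529: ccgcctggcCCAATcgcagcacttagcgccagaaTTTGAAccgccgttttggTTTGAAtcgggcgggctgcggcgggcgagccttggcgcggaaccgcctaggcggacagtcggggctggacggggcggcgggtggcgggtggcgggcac
Top2a, chr11:99024190-99024339: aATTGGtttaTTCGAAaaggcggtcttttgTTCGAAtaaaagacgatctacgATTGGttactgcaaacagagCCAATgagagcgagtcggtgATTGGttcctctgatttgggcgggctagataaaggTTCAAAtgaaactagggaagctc
Ccnb1, chr13:100786571-100786720: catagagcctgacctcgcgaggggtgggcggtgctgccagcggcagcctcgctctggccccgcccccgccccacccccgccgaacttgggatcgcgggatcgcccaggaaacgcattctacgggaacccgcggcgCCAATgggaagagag
Cdk1, chr10:69352939-69353088: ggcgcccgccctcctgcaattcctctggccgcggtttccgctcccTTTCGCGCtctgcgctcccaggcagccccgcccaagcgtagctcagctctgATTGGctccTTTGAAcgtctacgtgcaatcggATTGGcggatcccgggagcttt

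Mki67 showed 2 CHR elements and 1 CCAAT box in these bases, Top2a 3 and 4, Ccnb1 0 and 1, and Cdk1 1 and 2 together with 1 E2F site. The same letters were counted in 300 bases around each RefSeq start, 250 before and 50 after. Of 49 promoters of the mitosis list (44 of 54 genes matched), 71.4% held a CHR element, 73.5% a CCAAT box and 6.12% an E2F site. Of 43 promoters of the DNA replication list (35 of 44 genes matched), 20.9% held a CHR element, 58.1% a CCAAT box and 39.5% an E2F site. Over all 32851 promoters of the table the shares were 19.2%, 37.4% and 2.26%. Over 15 promoters of the cell cycle transcription factors (11 of 17 genes matched) each of the 3 shares was 40%, and over 17 promoters of the repair list (16 of 22 genes matched) they were 11.8%, 64.7% and 17.6%. The CHR share was highest in the mitosis list, and the E2F share was alike in the replication and transcription factor lists. A match is a run of letters and not a measured binding site.

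The score was next compared between the labelled groups. ΔEcad females had the highest median score at 4.57, beside 4.22 in each of the other groups, and the groups overlapped widely, since ΔEcad females alone ran from 1.43 to 7.09. Each of the 4 genes was tested on counts for genotype within each sex and for sex within each genotype. None of these 16 tests was called in edgeR or in DESeq2, and none had an unadjusted p under 0.05 (the smallest was 0.175, for Mki67 in females against males of Ecad tumours). The log2 differences ranged from 0.07 for Cdk1 to 1.07 for Mki67, with standard errors (SE) of 0.53 to 0.77, all in the direction of ΔEcad over Ecad or female over male. A difference of this size lay within the spread between tumours at 8 per group.

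Genes were then compared between the high and the low tumours on raw counts. A call needed a log2 fold change beyond 1 in either direction and, in edgeR's quasi-likelihood test, an adjusted p (Benjamini-Hochberg) below 0.05, and fold changes are high minus low on the log2 scale. Without the 4 score genes, 15600 genes were tested and 792 were called (5.08%), of which 438 were higher (2.81%) and 354 lower (2.27%) in the high tumours. DESeq2 called 1837 genes, 741 higher and 1096 lower. The median log2 fold change of all genes tested was -0.04. Of the 438 higher genes, 104 belonged to the 157 tested genes of 6 cell cycle lists, and 334 lay outside them. Without ΔEcad male 2, ΔEcad male 7 and ΔEcad female 3, 371 genes were called, 252 higher and 119 lower. Without ΔEcad female 3 alone 438 genes were called, without ΔEcad female 5 alone 465 and without Ecad female 4 alone 518. In bulk RNA, fewer cells of a type and less RNA per cell cannot be told apart.

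Genes of mitosis were almost all higher in the high tumours. Of 54 genes, 49 were called higher and 1 lower, against 2.81% and 2.27% of all genes, and the list median was 1.96. As the tumours were chosen on 4 genes of this programme, these counts describe how far the choice reaches and are not separate evidence. In 32 of the 54 genes every high tumour lay above every low tumour in CPM, which 0.981% of all genes did. Dlgap5 (ENSMUSG00000037544, chromosome 14, 47387779 to 47418407), a spindle-associated protein, was at 6.34, 13.4 and 36.4 TPM at the lowest, median and highest high tumour and at 0.42, 1.71 and 2.55 TPM in the low tumours. The classes did not overlap, and Dlgap5 differed by 2.87 on the log2 scale (SE 0.32, edgeR adjusted p 0.000174). Ncapg, a subunit of condensin, was at 3.32, 10.9 and 33.6 TPM against 0.33, 1.36 and 1.94 TPM, also without overlap, at 2.84 (SE 0.35, edgeR adjusted p 0.000211). The largest differences of the list were for the motor and spindle genes Hmmr (2.97), Kif20a (2.90), Dlgap5 and Kif4 (2.85), and for the condensin gene Ncapg. The median of the list was 2.39 within females, 1.69 within males, 1.87 within Ecad tumours and 2.08 within ΔEcad tumours, with 25, 0, 20 and 0 genes called. Over all genes these fits called 287 of 16669, 0 of 17225, 63 of 16397 and 0 of 16034. Without the 3 libraries named above it was 1.69, with 37 genes called higher and none lower.

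Single members of the mitosis list departed from the rest. Pttg1, which encodes securin, the inhibitor of separase, was lower in the high tumours, by -1.57 (SE 0.37, edgeR adjusted p 0.0153). It was at 20.9, 42.9 and 73.7 TPM in the high tumours and at 42.7, 83.2 and 241.6 TPM in the low tumours, with overlap. Espl1, the separase that securin holds back, was called higher at 1.16. Not called were Cdc25b at 0.48, Birc5 (survivin) at 0.90, Cenpa (the centromeric histone) at 0.98 and Ube2c (the ubiquitin-conjugating enzyme of the anaphase complex) at 1.25. Across the 54 mitosis genes the fold change went with the length of the longest transcript (Spearman's rho 0.40, Pearson's r 0.38), and across 15583 genes with a length rho was 0.26. These are correlations across genes of the same 20 libraries, in which the long against short balance also moved with the class. With that balance as a covariate, an alternative added after seeing the data, 581 genes were called, 51 mitosis genes were higher and none lower, and Pttg1 was at -0.80 (edgeR adjusted p 0.091). Pttg1 was also not called without the 3 libraries named above (-1.36, edgeR adjusted p 0.0688), with the keratinocyte score (-1.43), with 5 marker scores (-0.97) or with a score from log2 CPM (-0.97), and without ΔEcad male 1, where it was highest, it was at -1.02. It was below 0 in all of these fits.

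DNA replication genes were higher as well, though less uniformly. Of 44 genes, 28 were called higher and none lower, against 2.81% and 2.27% of all genes, and the median was 1.23. In 14 of them every high tumour lay above every low tumour in CPM, which 0.981% of all genes did. As for mitosis, counts in this and the other cell cycle lists describe how far the choice of tumours reaches and are not separate evidence. Pole, the catalytic subunit of the leading-strand polymerase, was at 4.14, 9.76 and 26.2 TPM in the high tumours and 1.02, 1.61 and 3.80 TPM in the low tumours, at 2.08 (SE 0.27, edgeR adjusted p 0.000211). Rrm1, the large subunit of ribonucleotide reductase, was at 27.9, 40.4 and 127.1 TPM against 6.42, 9.91 and 13.9 TPM, at 1.85 (SE 0.26, edgeR adjusted p 0.000294). Neither gene overlapped between the classes, and both overlap other annotated genes, which makes the share of their reads uncertain. Rrm2, the partner subunit of Rrm1, had the largest value of the list at 2.75, followed by Dtl, an adaptor of the CUL4 ubiquitin ligase, at 2.60, Clspn (claspin) at 2.55 and the licensing factor Cdc6 at 2.52. Of the 16 genes that were not called, Rfc2 was at -0.01 and Pcna, the sliding clamp, at 0.88 (SE 0.26, edgeR adjusted p 0.0418), below the limit on fold change.

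Repair of broken replication forks followed the same direction. Of 22 genes for recombination repair and the S-phase checkpoint, 16 were called higher and none lower, at a median of 1.76. Of all genes, 2.81% were called higher and 2.27% lower. In CPM 11 of the 22 did not overlap between the classes, against 0.981% of all genes with every high tumour above. Fanci, of the Fanconi anaemia complex, was at 3.91, 6.63 and 21.6 TPM in the high tumours and 0.56, 1.25 and 2.67 TPM in the low tumours, at 2.15 (SE 0.33, edgeR adjusted p 0.000532). Chek1, the checkpoint kinase that answers stalled forks, was at 3.33, 6.42 and 19.3 TPM against 0.53, 1.42 and 2.25 TPM, at 2.00 (SE 0.31, edgeR adjusted p 0.000618). Wee1, which holds Cdk1 inactive, was at 0.39 and was not called.

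**Figure D2:**
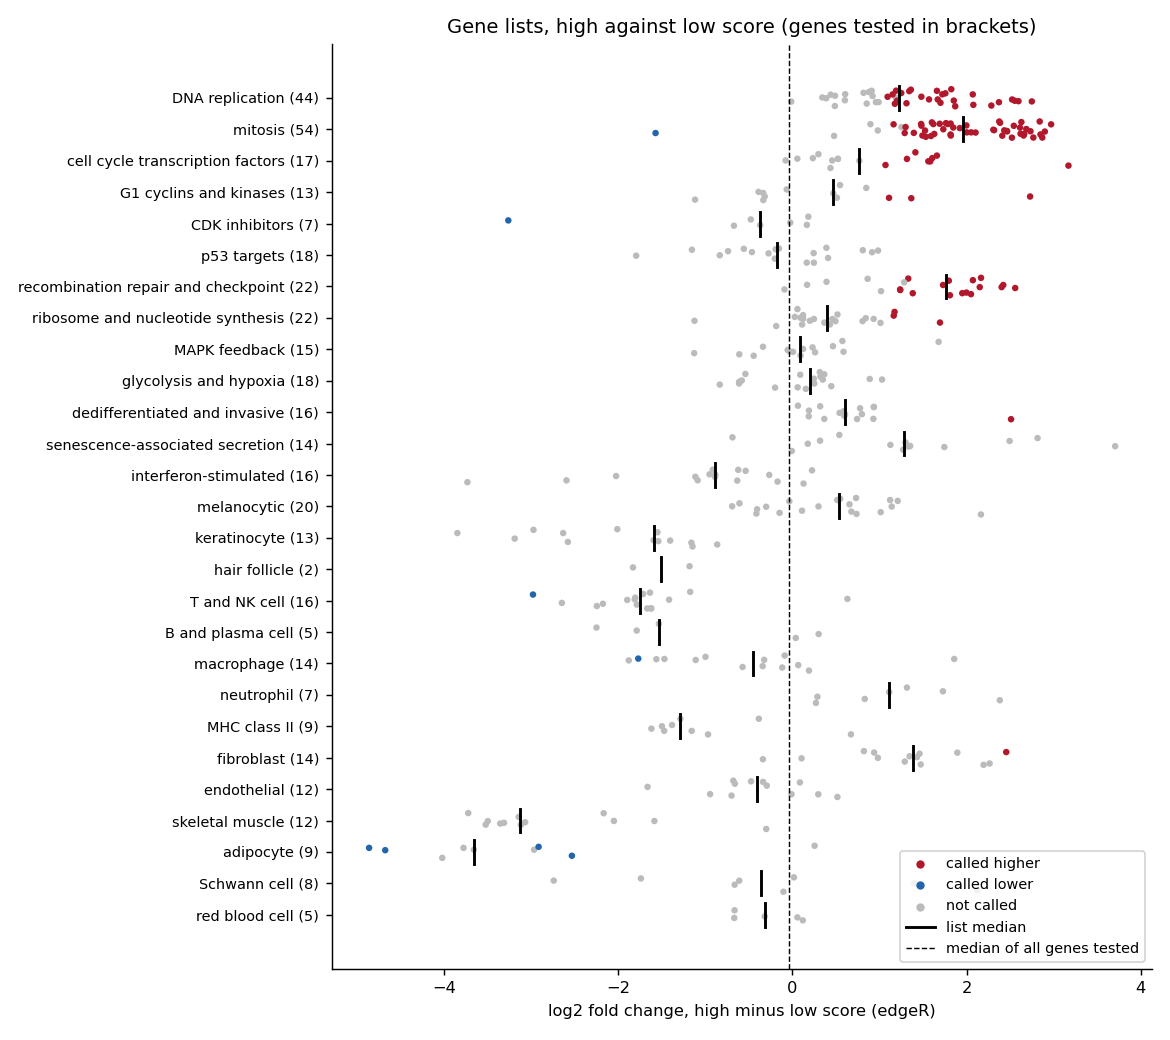
Log2 fold change (high minus low score, edgeR) of the tested members of 27 gene lists, with the number tested in brackets. Red points were called higher, blue points called lower and grey points not called. Solid bars are list medians and the dashed line is the median of all genes tested at -0.04. The mitosis, DNA replication and repair lists stand to the right with medians of 1.96, 1.23 and 1.76, and the muscle and adipocyte lists to the left with medians of -3.13 and -3.66.

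Among the transcription factors of the cycle, 8 of 17 were called higher and none lower (median 0.77), against 2.81% and 2.27% of all genes. Without ΔEcad female 3, 5 were called higher. Mybl2, the B-MYB subunit that joins MuvB, was at 5.53, 10.2 and 19.4 TPM in the high tumours and 0.66, 2.71 and 4.81 TPM in the low tumours, without overlap, at 1.66 (SE 0.25, edgeR adjusted p 0.000587). Rbl1 (p107), a pocket protein that is itself an E2F target, was at 1.61 (SE 0.25, edgeR adjusted p 0.000665), also without overlap. Foxm1 was at 17.3, 35.8 and 91.5 TPM against 5.22, 8.37 and 22.8 TPM, with overlap, at 1.41 (SE 0.29, edgeR adjusted p 0.00653). The repressive E2F members E2f8 (3.17) and E2f7 (1.58) were called, together with Mybl1, Tfdp1 and Lin9. The activating member E2f1 was at 26.4, 39.1 and 91.9 TPM against 4.25, 19.9 and 39.95 TPM, with overlap, at 0.77 (SE 0.33, edgeR adjusted p 0.144). Rb1 and E2f4 were at 0.23 and 0.06.

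Of 13 G1 genes, 3 were called higher and none lower, against 2.81% and 2.27% of all genes, and the median was 0.47. Both E-type cyclins were among the 3. Ccne1 was at 14.8, 23.5 and 57.0 TPM in the high and 2.70, 8.59 and 13.3 TPM in the low tumours, without overlap, at 1.36 (SE 0.34, edgeR adjusted p 0.0222). Its adjusted p was 0.0671 without the 3 libraries named above. Ccne2 was at 2.39, 8.29 and 31.4 TPM against 0.14, 1.08 and 2.09 TPM, at 2.73 (SE 0.52, edgeR adjusted p 0.0036), apart in TPM and overlapping in CPM. The third was Skp2 (1.11), the ubiquitin ligase subunit that marks p27 for destruction. Ccnd1, cyclin D1, a target of MAP kinase signalling, was at 441.5, 1217 and 2199 TPM in the high and 94.6, 531.1 and 1246 TPM in the low tumours, with wide overlap, at 0.55 (SE 0.37, edgeR adjusted p 0.357). Cdk4 was at 0.47 (SE 0.21, edgeR adjusted p 0.171). Of 15 MAP kinase feedback genes none was called, and their median was 0.09, with Fosl1, a subunit of AP-1, at 1.68 (SE 0.75, edgeR adjusted p 0.165).

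Of the inhibitors of cyclin-dependent kinases, 1 of 7 was called, against 5.08% of all genes in either direction. Cdkn1c (p57) was at 1.38, 5.83 and 64.6 TPM in the high and 2.06, 36.6 and 744.5 TPM in the low tumours, at -3.26 (SE 0.87, edgeR adjusted p 0.0308). Its call was lost when any of 6 tumours was left out (Ecad male 5, Ecad females 1, 2 and 4, ΔEcad female 3 or ΔEcad female 8), at adjusted p of up to 0.085. Cdkn1a (p21) was at 73.8, 213.3 and 373.3 TPM against 84.2, 189.3 and 466.2 TPM, nearly the same range, at -0.48 (SE 0.34, edgeR adjusted p 0.374). Cdkn2a, of which all mice lacked 1 copy, was at 8.11, 14.4 and 94.9 TPM against 7.70, 24.1 and 101.0 TPM, at -0.67 (SE 0.43, edgeR adjusted p 0.327). Trp53 was at 0.24 (SE 0.33, edgeR adjusted p 0.662), and none of the 18 genes of the p53 list was called (median -0.17), of which Phlda3 came nearest at -1.15 (SE 0.37, edgeR adjusted p 0.0596).

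Ribosome and nucleotide synthesis genes, which supply growing cells, were above 0 in 20 of 22 cases at a median of 0.40. Of these 22, 3 were called higher and none lower, against 2.81% and 2.27% of all genes. The 3 were the nucleolar proteins Nop58 (1.69), Nop56 (1.16) and Nolc1 (1.17). Nop58 was at 9.98, 19.1 and 61.2 TPM in the high and 1.86, 4.37 and 10.4 TPM in the low tumours (SE 0.32, edgeR adjusted p 0.00358), and both Nop genes host small nucleolar RNAs. No gene was called among 18 of glycolysis and hypoxia (median 0.20), 14 of senescence-associated secretion (median 1.28) or 16 interferon-stimulated genes (median -0.89). Nearest to a call were P4ha1, a collagen prolyl hydroxylase, at 1.03 (SE 0.36, edgeR adjusted p 0.0834), the chemokine Cxcl2 at 3.71 (SE 1.39, edgeR adjusted p 0.102), and the interferon-induced chemokine Cxcl9 at -3.73 (SE 1.48, edgeR adjusted p 0.12).

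**Figure D3:**
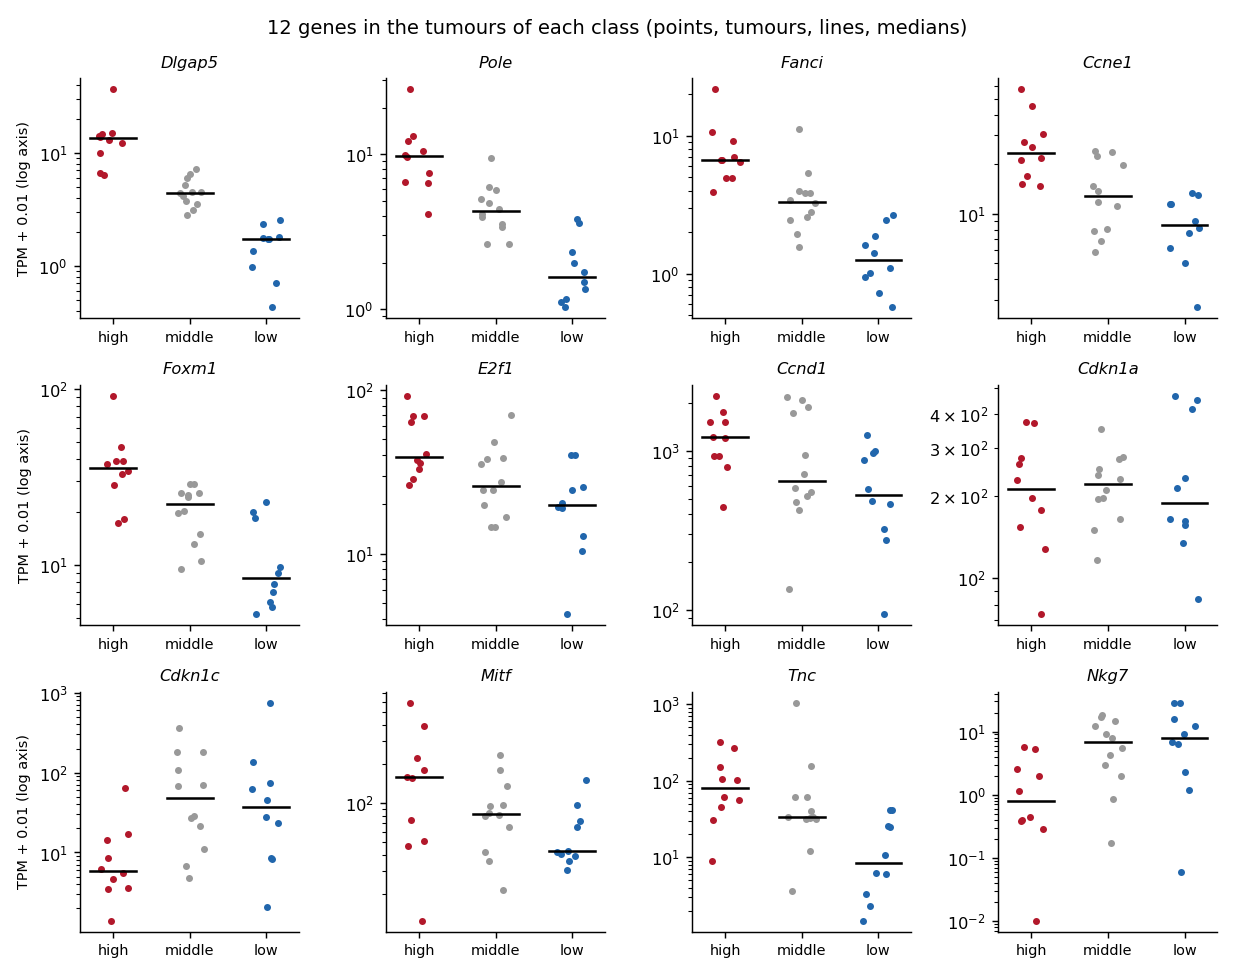
Levels in TPM + 0.01 (log axes, which differ between panels) of 12 genes in the 10 high, 12 middle and 10 low tumours. Points are tumours and lines are medians. Dlgap5, Pole, Fanci and Ccne1 do not overlap between high and low tumours, Foxm1 and E2f1 overlap, and Cdkn1a covers nearly the same range in the 3 classes.

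Outside all lists, 329 genes were called higher and 346 lower. The 5 higher genes with the smallest p were also genes of chromosomes, centrioles, nuclear lamina and cytoskeleton. Stil, needed to duplicate centrioles, was at 4.39, 8.73 and 22.3 TPM in the high and 0.41, 1.16 and 2.67 TPM in the low tumours, at 2.51 (SE 0.29, edgeR adjusted p 0.000174). Kntc1, a kinetochore protein, was at 2.89 (SE 0.36, edgeR adjusted p 0.000211), and Lmnb1, which encodes lamin B1, at 2.04 (SE 0.26, edgeR adjusted p 0.000211). Mns1, a protein of the meiotic nucleus and of flagella, was at 2.54 (SE 0.33), and Diaph3, a formin, at 2.73 (SE 0.36), both at an edgeR adjusted p of 0.000211. In CPM, 4 of the 5 did not overlap between the classes, and Lmnb1 did. Each of these calls held when any 1 tumour was left out. Among the genes named above, Ncapg, Foxm1, Fanci, Ccne2 and Mns1 overlap other genes (Lcorl, Tex52, Polg, Ints8 and Tex9), and their reads may be shared. The same holds for Cdk4 (Tspan31) and Ccnd1 (LTO1). Further named genes, among them Mki67, Top2a, Mybl2, Rbl1 and Diaph3, overlap annotated genes too.

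The 5 lower genes with the smallest p were Rabac1, Atp6v1f, Smkr-ps, Arf5 and Timp4. Rabac1, a RAB-interacting Golgi protein, was at 148.0, 224.9 and 380.1 TPM in the high and 343.7, 494.4 and 1126 TPM in the low tumours, at -1.67 (SE 0.25, edgeR adjusted p 0.000532). In CPM, Rabac1 was the 1 gene of 15600 (0.00641%) that was lower in every high tumour than in any low tumour. Timp4, a metalloproteinase inhibitor, was at 0.02, 0.16 and 0.45 TPM against 0.27, 2.78 and 22.4 TPM, at -4.96 (SE 0.88, edgeR adjusted p 0.00227). Its adjusted p was 0.0706 with keratinocyte and melanocytic marker scores as covariates. The other 3 genes lie on chromosome 6 and are described with that chromosome. Singled out once the values were known, other lower genes were Ypel3 (-1.17), Cirbp (-1.23), Cbx7 (-1.91), which encodes a Polycomb subunit, the clock gene Cry2 (-1.35) and the class I antigen-presenting genes H2-K1 (-2.52) and H2-T23 (-2.90).

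Markers of other cell types moved with the classes and stand beside these results. The mean log2 CPM of 16 keratinocyte markers had a median of -2.40 in the high (range -3.43 to 7.23), 5.44 in the middle and 5.07 in the low tumours (range -3.06 to 8.49). None of the 13 tested keratinocyte markers was called, and all 13 were below 0, at a median of -1.60. The 12 skeletal muscle markers had a median log2 fold change of -3.13, with 12 below 0 and none called, and class medians of -0.29 in the high and 5.29 in the low tumours. Of 9 tested adipocyte markers, 4 were called lower (Retn, Lpl, Fabp4 and Cidec) and none higher, at a median of -3.66. Of all genes, 2.27% were called lower. Retn was at 0.03, 0.77 and 4.18 TPM in the high and 0.05, 9.55 and 158.2 TPM in the low tumours, at -4.68 (SE 1.23, edgeR adjusted p 0.0283). No adipocyte marker was called without ΔEcad female 7 alone (median -2.46), without ΔEcad female 3 alone (median -3.51), without the 3 libraries named above, or with the keratinocyte score as a covariate. There was 1 call without Ecad male 5, Ecad female 1 or Ecad female 4, and 2 without Ecad male 7, Ecad female 2, ΔEcad male 2 or ΔEcad female 8. A fit that also held the keratinocyte and melanocytic scores called 368 genes and 37 of the 54 mitosis genes. A fit with 5 marker scores called 59 genes, and 17 of the mitosis list. Beyond these fits the part of skin, muscle and fat in the lower genes was not tested.

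Among immune and fibroblast markers 3 genes were called, where 2.81% of all genes were called higher and 2.27% lower. Nkg7, a granule protein of cytotoxic lymphocytes, was at 0, 0.78 and 5.69 TPM against 0.05, 7.99 and 28.4 TPM, at -2.98 (SE 0.88, edgeR adjusted p 0.0438), the only call among 16 T and NK cell markers (15 of 16 below 0, median -1.75). Cd68, of macrophage lysosomes, was at 5.70, 149.4 and 268.5 TPM against 38.6, 458.0 and 1241 TPM, at -1.77 (SE 0.53, edgeR adjusted p 0.0456), the only call among 14 macrophage markers (median -0.46). These calls were lost in 15 and 14 of the 20 fits that left out 1 tumour. Postn (periostin) was called among 14 fibroblast markers, at 2.46 (SE 0.69, edgeR adjusted p 0.0378) with 13 of 14 above 0 and a median of 1.39. The 14 markers summed to 1310159 counts in ΔEcad female 3 and 711660 in ΔEcad male 7, against a median of 121961 in the other tumours. Which cells made this RNA was not tested. Tnc (tenascin C) was at 8.81, 80.9 and 320.9 TPM in the high and 1.46, 8.43 and 41.7 TPM in the low tumours, at 2.51 (SE 0.64, edgeR adjusted p 0.0249), the only call among 16 dedifferentiation and invasion genes (median 0.60). The edgeR adjusted p of Postn and Tnc rose to 0.239 and 0.0873 without the 3 libraries. Leaving out 1 tumour lost the call of Postn in 9 of the 20 fits and that of Tnc in 1. Other genes called higher, picked with their values in view, were Has2 (5.53), Vcan (3.70), Cdh11 (3.68) and Spp1 (3.36). Has2, Vcan and Cdh11 reached their highest level, 364.5, 176.7 and 140.2 TPM, in ΔEcad female 3.

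Markers of the other cell types gave no call. All 7 neutrophil markers were above 0 (median 1.11, with Retnlg at 2.38), and 8 of 9 MHC class II genes were below 0 (median -1.29, with H2-DMa at -1.62). Medians were -0.41 over 12 endothelial, -1.53 over 5 B and plasma cell, -0.36 over 8 Schwann cell, -0.32 over 5 red blood cell and -1.51 over 2 hair follicle markers. The members with the smallest p were Cldn5 (-1.66) for endothelial cells, Derl3 (-2.25) for B and plasma cells, Hba-a2 (-0.67) for red blood cells and Krt71 (-1.83) for hair follicles, with Sbsn (-2.97) for keratinocytes and Mylpf (-3.52) for muscle.

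The pigment cell lineage gave no call either. The 20 melanocytic markers had a median of 0.53, and 13 of them were above 0. Mitf, the melanocyte lineage factor, was at 12.4, 158.0 and 590.5 TPM in the high and 30.4, 42.4 and 151.3 TPM in the low tumours, at 1.21 (SE 0.47, edgeR adjusted p 0.116). Without ΔEcad male 7 Mitf was called, at 1.35 (edgeR adjusted p 0.0483). Dct, a pigment enzyme, was at 4.98 TPM in ΔEcad male 7 and between 5303 and 26329 TPM in the low tumours, at -0.41 (SE 0.69, edgeR adjusted p 0.735). Axl, a receptor of dedifferentiated melanoma, was at 0.78 (SE 0.59, edgeR adjusted p 0.416), and Cdh1 at -1.46 (SE 0.95, edgeR adjusted p 0.334), where epithelial skin also makes E-cadherin. Grpr, the gastrin-releasing peptide receptor gene, did not pass the filter on low counts. It stood at 0, 2.68 and 262.9 TPM in the high and 0, 0.06 and 31.5 TPM in the low tumours, with its highest level in ΔEcad female 3. Outside the ΔEcad females no tumour exceeded 5.14 TPM (ΔEcad male 7). The high class held 4 ΔEcad females, at 11.9 to 262.9 TPM. The low class held 2, at 4.66 TPM and, in ΔEcad female 5 with the lowest score, 31.5 TPM.

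**Figure D4:**
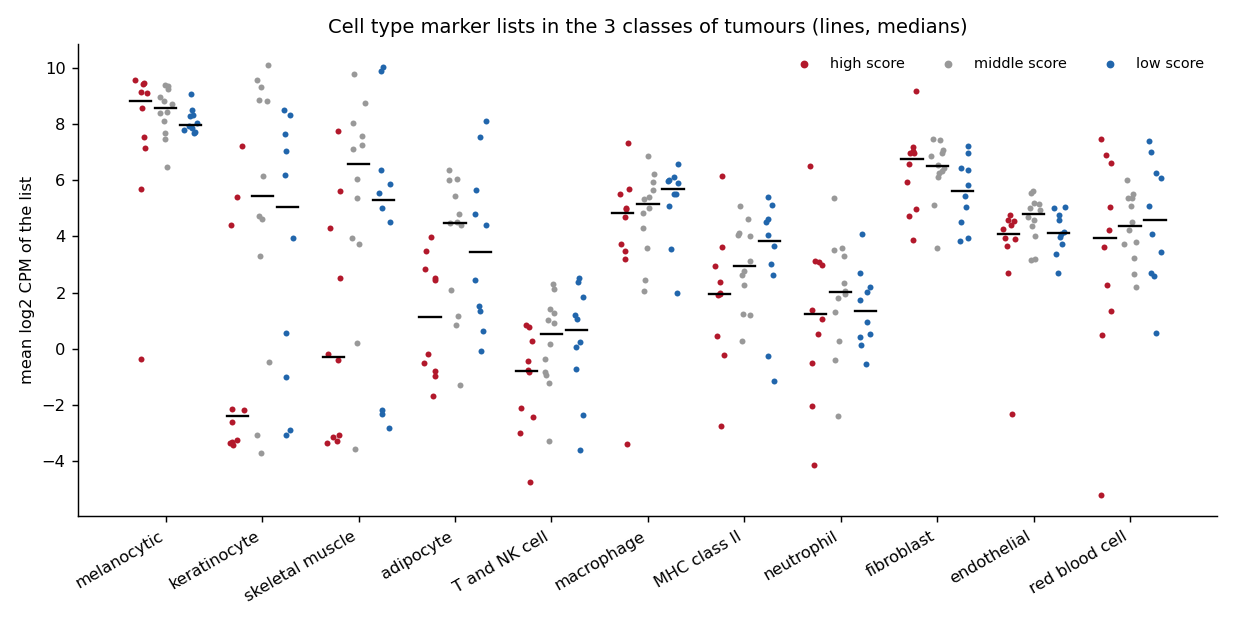
Mean log2 CPM of 11 lists of cell type markers in the 10 high, 12 middle and 10 low tumours. Points are tumours and lines are medians. Keratinocyte and muscle markers spread widely in every class, with the high tumours mostly at the lower end (keratinocyte median -2.40 against 5.07 in the low tumours), and ΔEcad male 7 and ΔEcad female 3 stand apart for melanocytic and for macrophage, endothelial and red blood cell markers.

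Chromosome 6 held an excess of the lower genes, a pattern noticed in the results and given as a description. Of 820 genes tested there, 58 (7.07%) were called lower, against 0.413% to 2.76% on the other chromosomes and 2.27% overall. Of these 58, 44 started between 20 and 40 Mb, where 106 genes were tested, 92 were below 0 and none was called higher. The median log2 fold change was -1.51 in this stretch and -0.04 on the rest of the chromosome. Between 40 and 50 Mb 3 of 60 genes were called lower (median -0.83), between 10 and 20 Mb none of 26 was called, and between 50 and 60 Mb 1 of 59 was called lower. The stretch includes Braf, the kinase below RAS in the MAP kinase pathway. Its edges are bounds of 10 Mb bins. Met, at 17463800 to 17573980, lies outside it and had a log2 fold change of 0.04. In the low tumours Met ran from 30.8 TPM in ΔEcad male 1 to 441.5 TPM in Ecad female 3, its highest level in the 32 tumours. In the high tumours it ran from 38.0 to 277.3 TPM.

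The stretch was raised in some low tumours and not in others. For each tumour the median deviation of 80 well-measured genes of the stretch from their median over all 32 tumours was taken on the log2 CPM scale. It was 2.59 in Ecad female 3, 2.51 in Ecad female 7, 2.43 in ΔEcad female 5, 1.41 in Ecad male 5, 1.29 in Ecad male 1 and 1.01 in ΔEcad female 7. In the other 4 low tumours it ran from -0.49 to 0.09. In these 6 low tumours the rest of chromosome 6 lay between -0.11 and 0.04. In the high tumours the stretch ran from -0.46 to 0.79, and in Ecad female 1, the highest, the rest of the chromosome was raised as well, at 0.74. Of the middle tumours, ΔEcad male 4 was at 2.48, and the next highest, ΔEcad male 5, at 0.38.

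Single genes of the stretch are given next. Atp6v1f, a subunit of the proton pump of lysosomes (ENSMUSG00000004285, chromosome 6, 29467718 to 29470512), was at 219.7, 352.7 and 532.0 TPM in the high and 385.0, 1553 and 4130 TPM in the low tumours, at -2.71 (SE 0.43, edgeR adjusted p 0.000793). Arf5, a small GTPase of the Golgi (ENSMUSG00000020440, chromosome 6, 28423560 to 28426602), was at 149.5, 204.0 and 278.6 TPM against 186.7, 594.3 and 1231 TPM, at -1.94 (SE 0.34, edgeR adjusted p 0.00215). Arf5 did not follow the stretch in ΔEcad male 1 (stretch -0.49), which had 564.5 TPM of Arf5 and 959.2 TPM of Atp6v1f, above every high tumour. That library also had the lowest long against short balance (-1.64). ΔEcad female 7 (stretch 1.01) had 419.7 TPM of Arf5, again above every high tumour. Of the 106 genes, 14 were not below 0, among them, picked with their values in view, Dgki (1.69) and Cald1 (1.46), neither of them called. Smkr-ps, at 29985329 to 29993776, was at -3.67 (SE 0.62, edgeR adjusted p 0.0014). Braf (ENSMUSG00000002413, chromosome 6, 39603237 to 39725463), named after its values were seen, was at 1.76, 9.54 and 21.7 TPM in the high tumours. In the low tumours Braf was at 125.3 TPM in Ecad female 3, 51.6 in Ecad female 7, 45.4 in ΔEcad female 5, 35.0 in Ecad male 1, 29.5 in Ecad male 5 and 12.9 in ΔEcad female 7, and at 0.88 to 7.43 TPM in the other 4. ΔEcad male 4, the middle tumour at 2.48, had 81.5 TPM of Braf. Braf differed by -2.12 on the log2 scale (SE 0.60, edgeR adjusted p 0.0382), and Ndufb2 overlaps it. Genomic DNA was not analysed here.

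The count in the stretch changed with the fit. Without the 3 libraries named above, 14 of the 106 genes were called lower, at a median of -1.49. Leaving out 1 tumour gave 25 calls without ΔEcad female 5, 27 without Ecad female 7 or ΔEcad female 3, 28 without Ecad female 4, and 29 without Ecad female 2 or ΔEcad female 8. There were 27 calls with no filter on low counts and none with 5 marker scores (median -1.10) or the tumour number as a block (median -0.96). Within females 48 were called and within males none, at medians of -1.98 and -1.02, and a difference between the sexes was not tested. Over all genes those 2 fits called 287 and 0. Within Ecad tumours 1 was called (median -1.88) and within ΔEcad tumours none (median -1.03), where these fits called 63 and 0 of all genes. With 12 against 12 tumours 14 were called (median -0.95) and with 16 against 16 tumours 12 (median -0.75). On chromosomes 12 and X the shares called higher were the next to stand out, 5.67% of 529 and 5.79% of 484 genes, against 1.71% to 3.88% elsewhere. The high class held more tumours labelled female (7 against 4 in the low class). This fit had no term for sex, so it does not separate sex from score on the X chromosome. Fits with the label group or within 1 sex were not counted by chromosome.

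**Figure D5:**
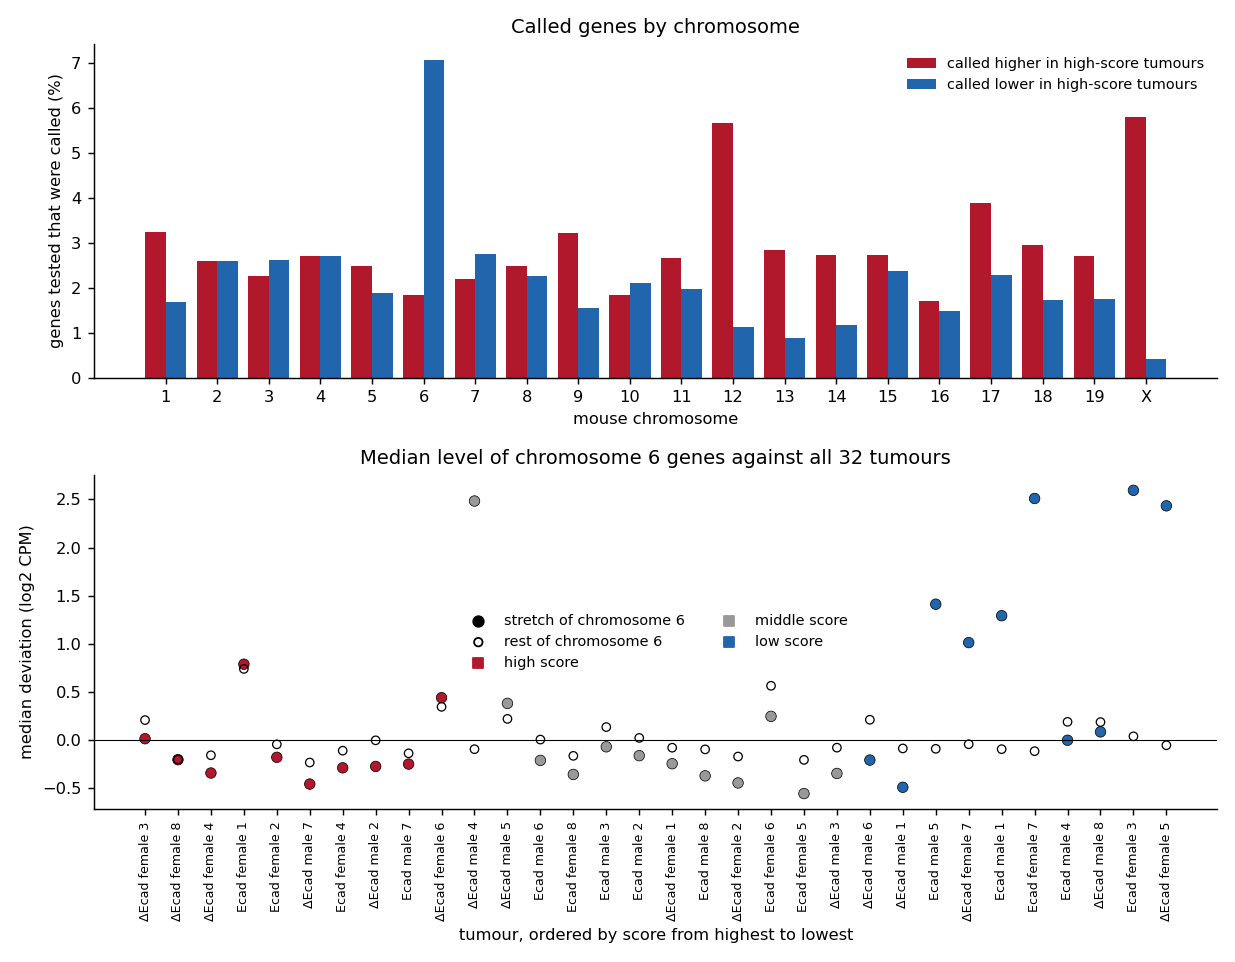
Top, percent of the tested genes on each mouse chromosome that were called higher (red) or lower (blue) in the high tumours. Bottom, median deviation in log2 CPM of genes in the stretch of chromosome 6 (filled points, coloured by class) and on the rest of that chromosome (open points) in the 32 tumours, ordered by score. The share called lower reaches 7.07% on chromosome 6, and the stretch stands above 1 in 6 low tumours and in ΔEcad male 4.

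The 12 middle tumours, which are in neither class, were fitted on their own, with the score as a continuous term scaled to the difference of 2.70 between the class means. Their scores span less than 1 unit, so these effects carry large errors. Within this span the score followed Mki67 and Top2a, whose effects were 6.01 (SE 2.81) and 2.72 (SE 1.03), and not Ccnb1 at -1.32 (SE 2.02) or Cdk1 at -2.79 (SE 2.63). Of 18132 genes, 1 was called in edgeR, the casein gene Csn3 (adjusted p 0.0392), while 1941 were at an unadjusted p under 0.05 with the same limit on fold change, and DESeq2 called 186. Of the 438 genes called higher in the main comparison, 66.9% were above 0 in the middle tumours, where 44.1% of all genes were above 0. Of the 354 called lower, 60.2% were below 0, near the 55.9% of all genes that were. The mitosis list was above 0 in 36 of 54 genes (median 1.13), the DNA replication list in 34 of 44 (median 0.85) and the repair list in 20 of 22 (median 1.66), where the median of all genes was -0.43. Mybl2 was at -1.26 (SE 2.06) and Foxm1 at -0.67 (SE 1.96), below 0 and within their errors. Interferon-stimulated genes were above 0 in 16 of 16 cases (median 11.8) and T and NK cell markers in 15 of 16 (median 4.61). MHC class II genes (4.77) and macrophage markers (3.04) were above 0 at the median too. Fibroblast markers were above 0 in 2 of 14 cases (median -3.06) and dedifferentiation and invasion genes in 6 of 16 (median -1.44). Transcription factor (-0.11), G1 (-0.31) and ribosome (-0.34) medians were below 0. All of these medians were opposite in sign to the high against low comparison, as were those of some other lists. Keratinocyte (-6.20), muscle (-8.97) and adipocyte (-6.78) medians stayed below 0.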

How the data were processed

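RNA of 32 mouse melanomas was measured by polyA sequencing. The authors mapped reads with STAR to GRCm38.p5 (mm10, GENCODE M13) and deposited raw counts and TPM per gene for 50600 genes; the labels also list FastQC 0.11.5. Batch correction is described where applicable, without saying whether these tumours had it, and strand use in counting is not stated, so genes overlapping others are uncertain. Symbols and positions came from GENCODE M21 and named 50376 identifiers.

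Tumours were grouped by the labels and, for the comparison, ranked by a score from TPM with a pseudocount of 1. Counts were tested in R 4.3.3 with edgeR 4.0.16 (two-sided, robust quasi-likelihood, TMM, filterByExpr) over the 10 high and 10 low tumours, with a common dispersion of 0.575. A gene list was described by its calls and median. On counts simulated for 15327 genes, 95.9% of genes changed by 4 and 67.3% of those changed by 2 on the log2 scale were called, and 6 unchanged genes were called. Total counts set the precision, a count of 0 allows up to 3 counts, and such floors cover counting error only. The 2 closest libraries correlated at 0.971 and were kept as separate samples.

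The members, gene lists (452 genes, 451 matched) and named genes were chosen with earlier results of these data known. Named were the score genes, 14 fixed genes (Foxm1, Mybl2, E2f1, Ccne1, Ccnd1, Cdk4, Cdkn1a, Cdkn2a, Trp53, Mitf, Dct, Axl, Cdh1, Grpr), the member of each list with the smallest p (2 where 5 or more members were called in 1 direction), and the 5 called genes outside all lists with the smallest p in each direction; 1 gene that this rule names is not reported here. Alternatives were DESeq2, limma voom, other size factors, filters, thresholds, covariates, class sizes, scores and subsets of tumours, and each tumour left out. Python 3 with pandas and matplotlib made the tables and figures.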

Additional observations from a re-analysis of the deposited data

Results flagged for a closer look

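Values of 174 sets of tumours (10 high or 10 low) were searched for a tumour whose gap to its nearest neighbour was large against the range of the set. The search found 14, beside a nominal rate of about 1 in 20 sets. The sets share the same 20 tumours, and some hold the score or its genes, so the 14 are a description and not a test. ΔEcad female 3, of the high class, stood above the other 9 high tumours in Top2a (log2 CPM 9.01 against 6.70 to 7.86), Rrm1 (8.69) and Diaph3 (6.74 against 4.10 to 4.89), and below them in Cd68 (1.10), Cldn5 (-5.19, 0 counts) and Hba-a2 (-5.19, 0 counts). It also stood below them in the mean log2 CPM of macrophage markers (-3.38) and endothelial markers (-2.32). ΔEcad male 7, also high, stood below the other high tumours in Dct (1.98 against 10.3 to 14.8) and in melanocytic markers (-0.35). Ecad female 4 had the highest mean log2 CPM of glycolysis and hypoxia genes among the high tumours, at 8.48. ΔEcad female 5 stood below the other low tumours in the score (1.43), in Mki67 (log2 CPM 0.10 against 2.92 to 5.69) and in Ncapg (-0.19).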

How the results depend on the processing

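Of 792 genes called, the count was 1837 with DESeq2, 1584 with limma voom, 1248 with 8 against 8 tumours, 374 with 16 against 16, 1605 with the score as a continuous term in 32 tumours, 226 at an adjusted p under 0.01, 368 with keratinocyte and melanocytic scores as covariates, 59 with 5 marker scores, 358 with the keratinocyte score alone (added after seeing the data) and 371 without ΔEcad male 2, ΔEcad male 7 and ΔEcad female 3. Females alone gave 287, males alone 0 in edgeR (1198 at an unadjusted p under 0.05), Ecad tumours alone 63 and ΔEcad tumours alone 0 in edgeR (2684 at an unadjusted p under 0.05); these fits hold fewer tumours. Leaving out 1 tumour gave 438 to 1074. Without a filter on low counts the split was 399 higher and 213 lower. With the tumour number as a replicate block the count was 106, of which 105 were among the 792. Deviations from the label group means were correlated over 48 pairs of same-numbered tumours. The median r was -0.05, with 12 over 0.1. It ran from -0.42 to 0.57, the highest for Ecad female 6 with ΔEcad male 6. Tumours of different number were not compared in this way, so whether the numbers pair the samples was not tested. In the middle tumours the count of 1 became 186 with DESeq2, 0 with the label group as a covariate and 1941 at an unadjusted p under 0.05. Of the 792 genes, at most 5 changed sign in any alternative in which they could be fitted.

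Of 2349 values of named genes under an alternative, 2040 kept direction and call, 221 lost a call, 36 gained one, 21 values without a test moved by over 1 SD, and 31 changed sign, all for genes not called in the comparison reported. With DESeq2 the changes of sign were Krt71 (0.17) and Retnlg (-0.61), with limma voom Trp53 (-0.055) and Axl (-0.43), and with the label group Hba-a2 (0.11). With the replicate block Retnlg was at -1.44. With keratinocyte and melanocytic scores Axl was at -0.23 and Cdh1 at 0.42, and with the keratinocyte score alone Cdh1 was at 0.36. With 5 marker scores Dct was at 0.82, Axl at -0.63, Cdh1 at 1.41, Fosl1 at -0.58, P4ha1 at -0.040, Cxcl9 at 1.83, Krt71 at 1.75 and Retnlg at -1.08. With 16 against 16 tumours Dct was at 0.15. In females Cxcl9 was at 0.59 and in males Mitf at -0.0079. In Ecad tumours Trp53 was at -0.015, Axl at -0.015 and Hba-a2 at 2.99, and in ΔEcad tumours Ccnd1 at -0.27, Cdkn2a at 0.087, Cdh1 at 0.16 and Retnlg at -0.52. Axl was at -0.36 without the 3 libraries, Hba-a2 at 0.41 with the long against short measure, Krt71 at 0.10 without ΔEcad female 7 and Retnlg at -0.54 without Ecad female 4. Over the fits that left out 1 tumour Krt71 ran from -3.51 to 0.10 and Retnlg from -0.54 to 2.85. The cause was not tested. Of 1134 list medians, 17 moved by over 1 SD.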
